A study of Mus musculus with 2 samples.

Results

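The 10 genes described here encode the microRNAs of the miR-200 family (Mir200b, Mir200a, Mir429, Mir200c and Mir141), the miR-183 cluster (Mir183, Mir96 and Mir182) and 2 miRNAs of stratified epithelium (Mir203 and Mir205). They were taken by symbol from the 1973 miRNA genes of the count tables, and all 10 were found there. The rule itself uses no measured value, but it was written with earlier results of these data known. Small RNA had been sequenced from healthy embryonic mouse liver of strain B6NCrl at age 12.5 days, with both sexes pooled and no treatment named. There were 2 libraries of 1 group, replicate 1 from the livers of 120 embryos and replicate 2 from those of 88. Both pools carry 1 donor identifier in the labels, so an SD here measures the spread between these libraries, which may be partly technical, and each test compares these libraries. With no second condition, the comparisons below are among the members, among their loci and between the libraries. Each library is whole liver, so the cell type that a read came from was not recorded, and fewer cells of a type cannot be told apart from less RNA per cell. Mir122, the defining hepatocyte miRNA, stood at 54020 ± 9747 CPM (SD, n = 2), where CPM is counts per 1000000 sense counts on miRNA genes.

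A miRNA is a short RNA cut from a hairpin precursor, and it represses messenger RNAs that pair with its seed, bases 2 to 8 from the 5′ end. The miR-200 family is known for keeping cells epithelial. It represses Zeb1 and Zeb2, transcription factors that silence E-cadherin and also the miR-200 genes themselves, and in liver it is known from bile duct epithelium more than from hepatocytes. The miR-183 cluster is best known from sensory cells of the eye, ear and nose, where mutations in the seed of miR-96 cause hearing loss, and it is also expressed in many epithelia. miR-203 promotes the differentiation of epidermal cells and represses the stem cell factor p63, and miR-205 is typical of basal cells of stratified epithelium and also represses Zeb1 and Zeb2.

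The mature sequences show which members can recognise the same targets. All 10 members matched the RefSeq miRNA table of build GRCm38.p6, the assembly of mm10, at identical hairpin coordinates. The arm printed for each is the one usually taken as the main product, 5′ to 3′, with the seed in capitals. The counts do not separate the arms.
miR-200b-3p: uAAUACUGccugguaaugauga
miR-200c-3p: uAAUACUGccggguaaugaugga
miR-429-3p: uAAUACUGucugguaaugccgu
miR-200a-3p: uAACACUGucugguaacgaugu
miR-141-3p: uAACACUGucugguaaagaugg
miR-183-5p: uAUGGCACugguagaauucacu
miR-96-5p: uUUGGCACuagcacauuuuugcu
miR-182-5p: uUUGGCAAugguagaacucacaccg
miR-203-3p: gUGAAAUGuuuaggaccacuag
miR-205-5p: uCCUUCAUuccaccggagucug

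The 10 sequences hold 7 seeds. Mir200b, Mir200c and Mir429 share the seed AAUACUG, while Mir200a and Mir141 share AACACUG. With positions counted from 1 at the 5′ end, the seeds of these groups differ by 1 base, U4C from miR-200b to miR-200a. Outside the seed, miR-200b and miR-200c differ at 2 of the 22 bases compared (U11G and A22G), and miR-200a and miR-141 also at 2 of 22 (C17A and U22G). Each pair of near-identical miRNAs is thus divided between chromosomes 4 and 6. In the miR-183 cluster each member has its own seed. miR-183 and miR-96 differ there by A2U, and miR-96 and miR-182 by C8A. Over 22 bases miR-183 and miR-182 differ at 4 positions, while miR-183 and miR-96 differ at 9.

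The gene counts leave out multimapping reads, so near-identical sequences could lower the counts of a member. The longest run of bases that a member's hairpin shared with another RefSeq miRNA hairpin was 17 (Mir200a with Mir141) and the shortest such maximum was 10 bases (Mir183, Mir96 and Mir182). Mir200b and Mir200c shared 14. All these runs are shorter than the mature sequences printed above, which have 22 to 25 bases. Matches elsewhere in the genome were not searched, and read lengths and the mismatches allowed in alignment were not used. Loss of the members' reads to multimapping was therefore not measured.

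The members lie at 5 loci, given here in mm10 with the GENCODE M21 annotation. The locus of Mir200b, Mir200a and Mir429, called the Mir200b locus here, spans 1846 bp at chr4:156053905-156055750, on the minus strand. Its 3 hairpins lie in an intron of Ttll10, and that of Mir429 also overlaps an exon of the noncoding transcript Gm13648. The locus of Mir200c and Mir141, called the Mir200c locus, spans 477 bp at chr6:124717914-124718390, on the minus strand, in an intron of the noncoding gene Gm15884, and Mir141 overlaps an exon of Gm29008. The miR-183 cluster spans 3820 bp at chr6:30165918-30169737, on the minus strand, between genes. Mir203 lies at chr12:112130880-112130955, on the plus strand, 3321 bp from Aspg. Mir205 lies at chr1:193507463-193507530, on the minus strand, in an exon of 4631405K08Rik, a long noncoding RNA that RefSeq names Mir205hg.

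All 10 members were detected, at 10 CPM or more in both libraries, against 15.3% of the 1973 genes (301). Together they held 0.552% of the sense counts in replicate 1 and 0.377% in replicate 2, or 0.464% ± 0.124 (SD, n = 2). The libraries held 3447858 and 3534816 sense counts, so the members rest on 19038 and 13312 counts. These counts carry no molecular identifiers, and every interval below is an exact 95% Clopper-Pearson interval that covers counting error only. A read spans a whole miRNA, so CPM was not divided by length. Capture may differ from miRNA to miRNA and was not measured, and a ratio between genes is therefore one of counts and need not be one of molecules.

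**Figure D1:**
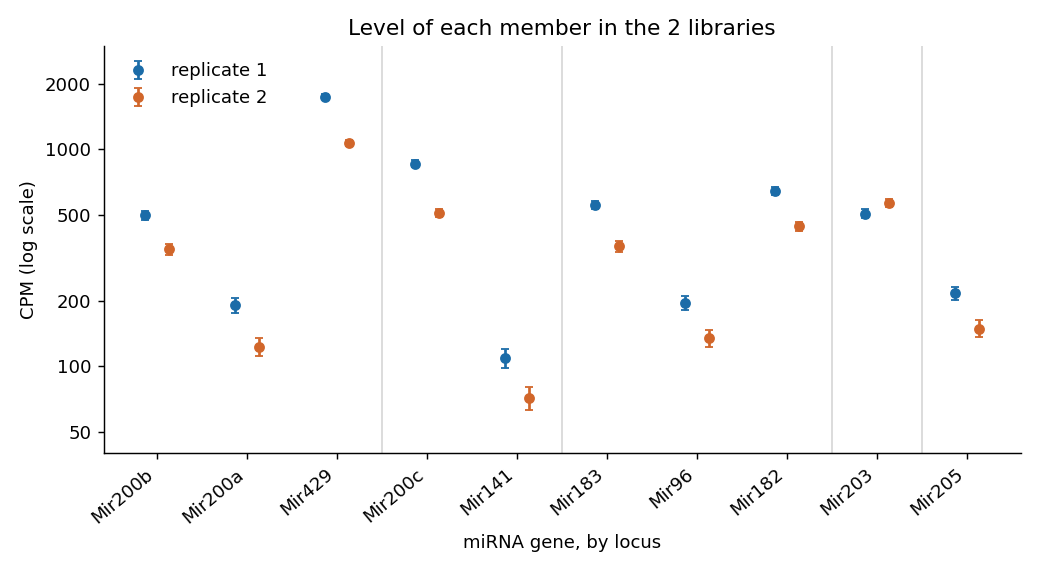
Level of each of the 10 members in CPM (log axis) in replicate 1 (blue) and replicate 2 (orange), with 95% counting intervals, grouped by locus. Mir429 is highest at 1750 and 1066 CPM, Mir141 lowest at 109 and 71.3 CPM, and Mir203 alone is higher in replicate 2.

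In the Mir200b locus, Mir429 was the highest of all 10 members. It had 6034 counts in replicate 1 and 3767 in replicate 2, or 1750 CPM (1706 to 1795) and 1066 CPM (1032 to 1100), with a mean of 1408 ± 484 CPM (SD, n = 2) and rank 91 among the 1973 genes. Mir200b stood at 498 CPM (475 to 522) and 346 CPM (327 to 366), a mean of 422 ± 108 CPM. Mir200a, between them on the chromosome, was the lowest of the locus at 191 CPM (177 to 206) and 123 CPM (112 to 135), a mean of 157 ± 47.9 CPM. The 3 genes kept this order in both libraries and their ranges did not overlap.

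In the Mir200c locus, Mir200c was the second highest member. It stood at 861 CPM (830 to 893) in replicate 1 and 510 CPM (487 to 534) in replicate 2, with a mean of 686 ± 248 CPM (SD, n = 2) and rank 114. Mir141 was the lowest of the 10 at 109 CPM (98.0 to 120) and 71.3 CPM (62.8 to 80.7), a mean of 90.0 ± 26.5 CPM and rank 219. It is the member with the fewest counts, 375 and 252, so its intervals are the widest in proportion.

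In the miR-183 cluster, Mir182 and Mir183 were close and Mir96, the member tied to hearing, was well below both. Mir182 stood at 642 CPM (615 to 669) and 442 CPM (421 to 465), a mean of 542 ± 141 CPM (SD, n = 2). Mir183 stood at 553 CPM (529 to 578) and 358 CPM (338 to 378), a mean of 455 ± 138 CPM. Mir96 stood at 196 CPM (182 to 211) and 135 CPM (123 to 147), a mean of 165 ± 43.4 CPM. Mir182 exceeded Mir183 in each library, but the ranges of the pair over the libraries overlapped.

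The miRNAs of stratified epithelium were not the lowest members. Mir203 stood at 504 CPM (481 to 529) in replicate 1 and 566 CPM (541 to 591) in replicate 2, with a mean of 535 ± 43.4 CPM (SD, n = 2). Its SD was 8.12% of its mean, while the SDs of the other 9 members lay between 25.5% (Mir200b) and 36.2% (Mir200c) of theirs. Mir205 stood at 217 CPM (202 to 233) and 149 CPM (137 to 163), a mean of 183 ± 48.0 CPM. The range of Mir203 lay inside that of Mir182, and the range of Mir205 overlapped that of Mir96.

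Ordered by mean CPM, the members were Mir429, Mir200c, Mir182, Mir203, Mir183, Mir200b, Mir205, Mir96, Mir200a and Mir141. Between neighbours in this order, the ranges over the libraries did not overlap in 3 places only. Mir429 lay above Mir200c, with a ratio of means of 2.05, Mir200b above Mir205, with 2.30, and Mir200a above Mir141, with 1.74. Within the groups from Mir200c to Mir200b and from Mir205 to Mir200a the ranges of neighbours overlapped. These ranges include the shift that most members shared between the libraries, so overlap does not show that neighbours were level. Mir200c exceeded Mir182 in each library, with 861 against 642 CPM in replicate 1 and 510 against 442 CPM in replicate 2. Apart from Mir203, the order of the members was the same in both libraries. Mir203 is the gene that changed place. It lay below Mir182 and Mir183 in replicate 1 and above both, and above Mir200c, in replicate 2. By the rule for naming genes of like level, Mir494 at 1432 ± 252 CPM, Mir185 at 1437 ± 220 CPM and Mir149 at 1369 ± 127 CPM lay nearest to Mir429.

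Grouped by seed, nearly all miR-200 counts fell on genes with the AAUACUG seed. Mir200b, Mir429 and Mir200c summed to 3109 CPM in replicate 1 and 1922 CPM in replicate 2, or 2516 ± 840 CPM (SD, n = 2). Mir200a and Mir141, with AACACUG, summed to 300 and 194 CPM, or 247 ± 74.4 CPM. The ratio of the seed groups was 10.4 in replicate 1 and 9.89 in replicate 2, or 10.1 ± 0.347. It covers both arms of each hairpin. A further mature miRNA of the RefSeq table, miR-1271-5p, has the seed of a member, UUGGCAC of miR-96. Its gene had 0 sense counts in each library. At 3 counts this allows a level of up to 0.870 CPM in replicate 1 and 0.849 CPM in replicate 2.

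Both miR-200 loci carried an abundant AAUACUG gene and a scarce AACACUG gene, and the locus on chromosome 4 was the larger. Its sum was 2439 and 1535 CPM (1987 ± 640, SD, n = 2), against 970 and 581 CPM (776 ± 275) for the Mir200c locus. The miR-183 cluster lay between them at 1391 and 935 CPM (1163 ± 323). The ratio of the chromosome 4 locus to the Mir200c locus was 2.51 and 2.64 in the 2 libraries, and its ratio to the miR-183 cluster was 1.75 and 1.64. Relative to Mir205 the chromosome 4 locus was 11.2 and 10.3 times as high.

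**Figure D2:**
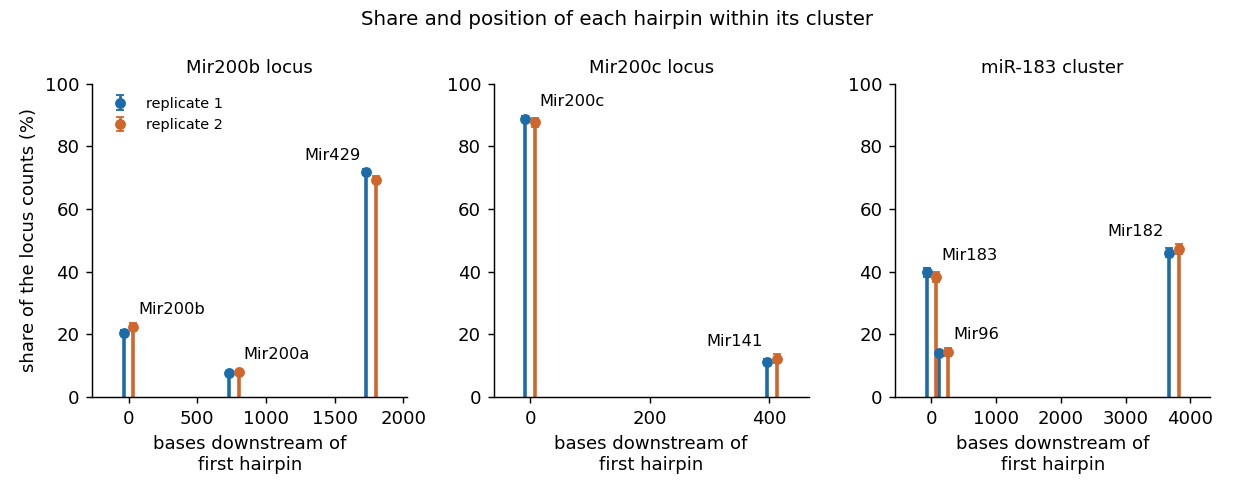
Share of the counts of each cluster (%) carried by each hairpin, plotted at its distance in bases downstream of the first hairpin of the cluster, for replicate 1 (blue) and replicate 2 (orange), with 95% counting intervals. The last hairpin of the Mir200b locus, Mir429, holds 71.7% and 69.4% of its locus, and the shares of each cluster differ little between the libraries.

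Within a cluster the hairpins lie close together and in 1 orientation, yet the highest and lowest counts of each cluster differed several-fold. Along the chromosome 4 locus, Mir200b comes first, the 5′ end of Mir200a lies 765 bases downstream and that of Mir429 1763 bases downstream. Mir429, the last, held 70.6% ± 1.63 of the locus counts (SD, n = 2), Mir200b 21.5% ± 1.5 and Mir200a 7.92% ± 0.137. In the Mir200c locus the first hairpin was the abundant one, with 88.3% ± 0.742 on Mir200c and the rest on Mir141, 405 bases downstream. In the miR-183 cluster the shares were 39.0% ± 1.04 on Mir183, 14.3% ± 0.220 on Mir96, which lies 186 bases downstream, and 46.7% ± 0.823 on Mir182, 3745 bases downstream. The count of a member thus followed neither its order nor its distance in the same way at the 3 clusters.

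The members of a cluster kept nearly the same proportions in the 2 libraries, as did most pairs of members at different loci without Mir203. Ratios were compared between the libraries for all 45 pairs of members and all 10 pairs of loci, by a two-sided Fisher's exact test of the counts with Benjamini-Hochberg adjustment over the 55. This test allows for counting error only and compares 2 libraries. Pairs of genes outside the members were not tested, so no share over all gene pairs stands beside the counts of pairs below. Of the 7 pairs inside a cluster, 1 differed, Mir429 to Mir200b, with 3.51 in replicate 1 and 3.08 in replicate 2 (adjusted p = 0.00680, Fisher's exact test). Mir200c to Mir141 was 7.92 and 7.15 (adjusted p = 0.439, exact test). Mir182 to Mir96 was 3.27 and 3.28, and Mir182 to Mir183 was 1.16 and 1.24. Pairs at different loci without Mir203 were about as steady, with 3 of 29 differing. The largest change was 0.23 on the log2 scale for those pairs and 0.19 inside a cluster. A ratio that did not pass is not shown to be equal.

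Between the libraries, the miR-200 genes, the miR-183 cluster and Mir205 were all lower in replicate 2, by similar amounts, while Mir203 was slightly higher there. Log2 ratios are replicate 2 over replicate 1 on library sizes scaled by TMM (trimmed mean of M-values), and differences were tested with a two-sided exact binomial test of the counts, adjusted over all 464 genes with at least 10 counts over both libraries. Of the 10 members, 9 were lower and 1 was higher. Over all genes tested, 40.3% passed, 18.3% lower and 22.0% higher, and among the 289 genes with at least 100 counts, as all members have, 61.9% passed, 28.4% lower and 33.6% higher. A call in either direction is therefore common at these counts. Hairpins of 1 cluster share a primary transcript, so the 9 calls rest on 4 loci. The median log2 ratio was -0.52 over the members and 0.02 over all genes tested.

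Within the miR-200 family the log2 ratio was -0.70 (95% interval -0.79 to -0.62) for Mir200c, -0.66 (-0.72 to -0.60) for Mir429, -0.58 (-0.76 to -0.40) for Mir200a, -0.55 (-0.79 to -0.32) for Mir141 and -0.47 (-0.58 to -0.36) for Mir200b. Mir200c was thus 1.63-fold and Mir200b 1.39-fold higher in replicate 1. In the miR-183 cluster it was -0.57 (-0.68 to -0.47) for Mir183, -0.49 (-0.66 to -0.32) for Mir96 and -0.48 (-0.58 to -0.39) for Mir182. Mir205, on another chromosome, had -0.49 (-0.65 to -0.32), close to Mir96 and Mir182. For Mir203 the log2 ratio was 0.22 (0.13 to 0.31), 1.17-fold higher in replicate 2. The adjusted p of the exact binomial test ran from 3.91e-109 for Mir429 to 1.26e-05 for Mir203. Ordered from the lowest log2 ratio among the 289 genes with at least 100 counts, Mir200c was in place 5, Mir429 in place 8 and the last of the 9 lower members, Mir200b, in place 25, while Mir203 was in place 225.

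**Figure D3:**
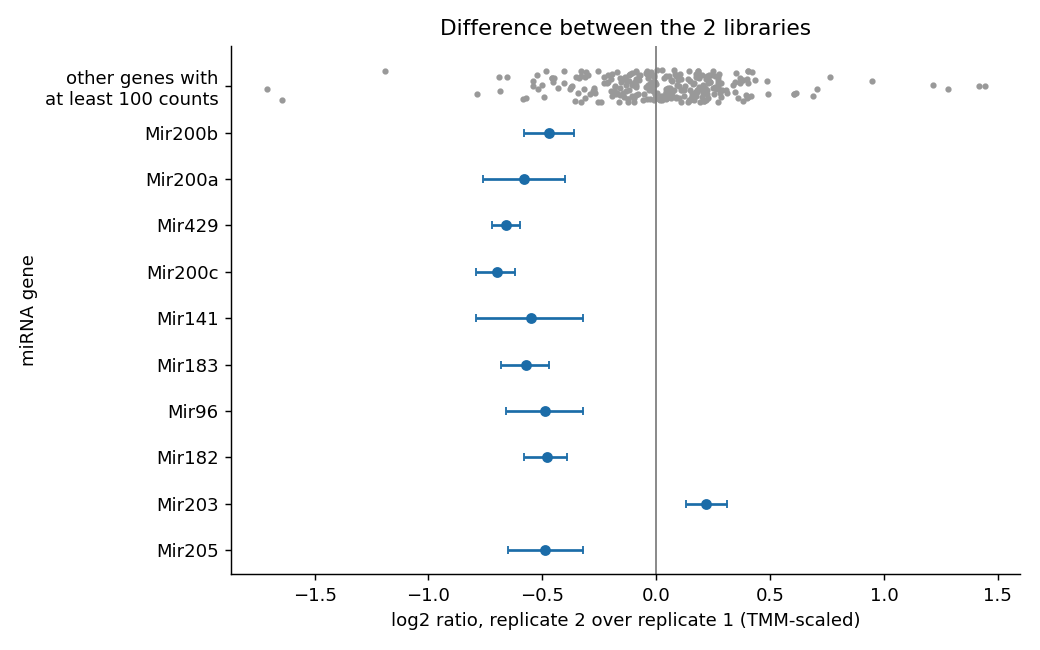
Log2 ratio of replicate 2 over replicate 1 (TMM-scaled counts) for each member, with 95% counting intervals, and for the other genes with at least 100 counts (grey points, spread vertically at random). The 9 members other than Mir203 lie between -0.70 and -0.47, and Mir203 at 0.22.

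The exact binomial test allows for counting error only, and with 1 library on each side the spread between pools was not measured independently of the difference. In edgeR's negative binomial exact test with an assumed biological coefficient of variation of 0.1, Mir200c passed (adjusted p = 0.0344), Mir429 came next (adjusted p = 0.0512) and none of the other 8 passed, where 2.59% of the 464 genes did. With a coefficient of 0.162, estimated from the same 2 libraries and so including the differences tested, 0 of 10 members passed, against 1.08% of all genes, and 2 members had an unadjusted p under 0.05. When total sense counts replaced TMM, the calls over all genes shifted from 54.5% to 43.3% higher in replicate 2, and the 10 members kept their directions, with Mir203 at 0.17.

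Ratios across loci restate the log2 ratios given above pair by pair, and so show the same division between Mir203 and the rest. Of the 29 pairs of members at different loci that leave Mir203 out, 3 differed between the libraries by Fisher's exact test, and no such ratio changed by more than 0.23 on the log2 scale. Those 3 were Mir200c to Mir200b, Mir200c to Mir182 and Mir429 to Mir182, each lower in replicate 2. The ratio of Mir205 to Mir96, on chromosomes 1 and 6, was 1.11 in both libraries, and that of Mir182 to Mir205 was 2.95 and 2.96. The ratio of Mir183 to Mir200a was 2.90 and 2.91. These 3 pairs were the steadiest of the 29, and other pairs on separate chromosomes moved more. Mir200c to Mir205 went from 3.96 in replicate 1 to 3.41 in replicate 2, and Mir429 to Mir96 from 8.93 to 7.91, neither passing the test. By locus sums, 1 of the 6 pairs without Mir203 differed, the miR-183 cluster to the Mir200c locus, with 1.43 in replicate 1 and 1.61 in replicate 2 (adjusted p = 0.00515, Fisher's exact test). For the 2 miR-200 loci the adjusted p was 0.291 (Fisher's exact test).

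Mir203 changed against every other member. All 9 of its pairs differed between the libraries, with adjusted p from 2.58e-54 to 3.23e-09 (Fisher's exact test). These 9 pairs share the counts of Mir203 and follow from the log2 ratios given above, so they are not separate results. Fisher's exact test leaves out the spread between pools, and Mir203 itself did not pass edgeR's negative binomial exact test at either coefficient. Mir203 was 2.32 times as high as Mir205, the other miRNA of stratified epithelium, in replicate 1 and 3.79 times as high in replicate 2. Mir200c exceeded Mir203 by 1.71 times in replicate 1 and stood at 0.901 times its level in replicate 2. The largest change of any pair, 0.92 on the log2 scale, was that of Mir200c and Mir203.

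**Figure D4:**
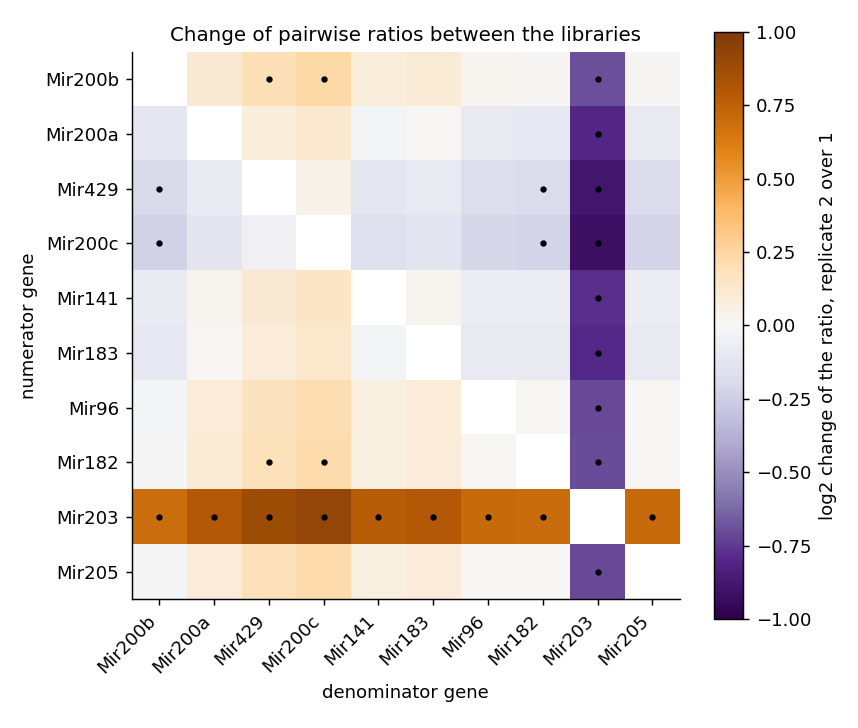
Log2 change, from replicate 1 to replicate 2, of the ratio of each row gene to each column gene, for the 45 pairs of members (each shown in both orientations), with dots where Fisher's exact test passed after adjustment over 55 ratios. The row and column of Mir203 stand apart, and without Mir203 no ratio changed by more than 0.23.

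Other epithelial miRNAs did not follow the 9 lower members. Of 11 listed (Mir192, Mir194-1, Mir194-2, Mir215, Mir375, Mir31, Mir34b, Mir34c, Mir449a, Mir449b and Mir449c), 9 had enough counts to test, 1 was lower in replicate 2, 0 were higher and 8 did not pass the exact binomial test, with log2 ratios from -0.09 to 0.44. The lower one was Mir375, of endocrine and gut epithelium, at 2303 and 2086 CPM (log2 ratio -0.09). Mir192, of liver and gut epithelium, stood at 1825 and 1777 CPM (log2 ratio 0.02 on TMM-scaled sizes, not called). The list summed to 5808 CPM in replicate 1 and 5526 CPM in replicate 2, more than the 5522 and 3766 CPM of the 10 members.

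Some markers of other cell types also differed between the libraries by the exact binomial test, which allows for counting error only. Their part in the members' differences was not tested. The 3 erythroid genes summed to 16926 CPM in replicate 1 and 37430 CPM in replicate 2 (2 higher, 1 lower), led by Mir451a at 12422 and 32496 CPM. Mir122 was at 60913 and 47128 CPM, a log2 ratio of -0.32 with the direction of the 9 members. The genes listed for mesenchyme and smooth muscle summed to 51040 and 60899 CPM (8 of 12 higher, 0 lower). That list was led by Mir99a at 21950 and 28581 CPM, followed by Mir143 at 19037 and 20332 CPM. Which cells Mir99a came from was not tested, so the rise of the sum need not be one of mesenchyme. Endothelial genes summed to 79577 and 79912 CPM (3 of 3 higher on TMM-scaled sizes). Leukocyte and megakaryocyte genes summed to 7700 and 6404 CPM (1 higher and 1 lower of 4 tested). That sum leaves out Mir146a, which was not matched by symbol, and Mir142. Mir142 is a major leukocyte miRNA whose gene lies opposite Mir142b and was not analysed here. Mir142b had 0 sense counts, with 150867 and 144755 counts on its opposite strand. Of organs outside the liver, muscle genes summed to 439 and 689 CPM (3 of 4 tested higher, 3 of 7 analysed at 0), neural genes to 247 and 224 CPM (1 of 4 tested lower, 4 of 8 analysed at 0) and of the pancreas genes Mir216a, Mir216b and Mir217, 1 of 3 was lower, with the highest, Mir217, at 10.4 and 9.05 CPM. On total sense counts instead of TMM, the calls were 6 of 12 higher for the mesenchyme list, 2 higher and 1 lower for the endothelial list and 2 of 4 lower for the neural list, and the other lists had the same numbers of calls as on TMM. The endothelial call that turned was Mir126a, at 68816 and 68165 CPM, with a log2 ratio of 0.04 on TMM-scaled sizes and -0.01 on total counts. In edgeR's negative binomial exact test, at either coefficient of variation, only erythroid and muscle genes among the lists still passed. With the erythroid genes left out of the total sense counts, used without TMM, the members' calls and directions were unchanged, from -0.72 for Mir200c to 0.20 for Mir203. Leaving them out moves all log2 ratios by a common amount, so it could not test a part of erythroid content.

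With 2 libraries, a pattern over samples is a single ratio, so likeness can only be given as nearness of that ratio. Among genes with at least 100 counts outside the members, Mirlet7d at -0.52 (95% interval -0.56 to -0.49), Mirlet7a-1 at -0.52 (-0.74 to -0.30) and Mir292 at -0.50 (-0.83 to -0.18) lay nearest to the members' median of -0.52. Mirlet7d stood at 3939 and 2637 CPM, Mirlet7a-1 at 119 and 80.1 CPM and Mir292 at 57.4 and 39.0 CPM.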

How the data were processed

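Small RNA libraries of 2 pools of embryonic liver were analysed. The authors deposited raw read counts per miRNA gene for both strands, the sense strand and the opposite strand, with reads aligned to mm10 and GENCODE M4 as annotation, per the files' own lists. The sources used here give no aligner or counter, and neither was assumed. Replicates 1 and 2 hold 11057424 and 11013976 reads. Of these, 29.4% and 25.8% were unmapped, 28.8% and 31.1% aligned to several places, 10.6% and 11.0% lay on no listed gene's sense strand, and at most 1 read was ambiguous. These stayed out of library sizes. Sense counts were 31.2% and 32.1% of the reads. Of 1973 identifiers, 1894 were named through GENCODE M21.

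CPM used total sense counts, log2 ratios 0.5 added counts, and tests a threshold of 0.05 (SciPy 1.17.1, edgeR 4.0.16, DESeq2 1.42.0). The binomial test was tried on simulated data whose only random spread was counting error. That simulation could not show how the test behaves when pools differ beyond counting error. Alternatives changed strand column, denominator, scaling, filter and test. The main sequence arm was assigned from general knowledge. All members are named. Of other genes, the rule allowed the 2 highest of each list, the 3 nearest in log2 ratio and the 3 nearest in level, and miR-1271, Mir142b and the other listed genes were named after their values were seen. The members and the 9 lists were chosen with earlier results of these data known. Of the 57 listed genes, 53 were analysed. Mir142, Mir146a, Mir1a-2 and Mir9-1 were not matched by symbol and were not analysed here.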

Additional observations from a re-analysis of the deposited data

Results flagged for a closer look

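Opposite-strand counts, which enter no comparison above, were above 3, the upper limit of a level at which 0 was counted, at 3 members in both libraries. Mir203 had 18 opposite-strand counts in replicate 1 and 15 in replicate 2, or 1.02% and 0.744% of the counts at that place. RefSeq has a hairpin there on the minus strand, Gm51289, with the mature products miR-203b-3p and miR-203b-5p, at chr12:112130887-112130946, which was not analysed here as a gene of its own. Mir183 had 12 and 6 opposite-strand counts (0.625% and 0.472%), and Mir182 had 7 and 8 (0.315% and 0.509%). The RefSeq table has no hairpin opposite Mir183 or Mir182. Of the other members, Mir141 had 1 and 0, and Mir200b, Mir200a, Mir429, Mir200c, Mir96 and Mir205 had 0 in both. Over all 1973 genes, opposite-strand counts were 9.80% and 9.33% of the counts, and Mir142b alone had 150867 and 144755 of them.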

How the results depend on the processing

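The members' summed level of 4644 CPM became 1465 per 1000000 reads with all reads as denominator and 7732 CPM without the 10 highest genes, by construction of the denominators, and each single level moved likewise. Counting both strands lowered all 10 levels and their sum to 4206 CPM, again through the denominator. The library totals rose from 3447858 to 3822650 counts in replicate 1 and from 3534816 to 3898528 in replicate 2. Mir203, from 535 to 488 CPM, was the 1 level that moved by more than its SD, the smallest in proportion to the mean, and the ratio of Mir182 to Mir96 went from 3.28 to 3.29. Counting both strands left 18 of 55 ratios different, as before. Leaving out 1 replicate gave summed levels of 3766 to 5522 CPM. At 1 CPM or with both strands 10 members were detected, and at 100 CPM 9, without Mir141. The exact binomial test called the 10 members in unchanged directions with total counts, DESeq2 size factors, no filter, at least 100 counts, both strands, and totals without erythroid genes, an alternative chosen after seeing the data. edgeR's negative binomial exact test called 1 member at a coefficient of variation of 0.1 (9 at an unadjusted p under 0.05) and 0 at the estimate (2 unadjusted). Over all genes it called 6 lower and 6 higher, then 2 and 3, against 85 and 102. With 1 library on each side, that estimate includes the differences tested. No paired analysis was possible because there is a single group. Leaving out a replicate leaves no difference between libraries to test. Mir141, with the fewest counts, is the least precise member.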
